A study of Mus musculus with 15 samples.

Results

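The receptors for the myeloid colony-stimulating factors were followed at the chromatin level through the conversion of mouse pre-B cells into macrophage-like cells. The 5 genes are Csf1r, Csf2ra, Csf2rb, Csf2rb2 and Csf3r, taken from a list of receptors by name and not by their measured values, and they are 5 of 22350 protein-coding gene starts on chromosomes 1 to 19 and X. C10 cells are a derivative of HAFTL, a mouse pre-B cell line, and carry C/EBPα fused to the hormone-binding part of the estrogen receptor together with GFP. The transgene was switched on with β-estradiol, at 100 nM per the labels although the study's methods give another unit, and the cells were grown with IL-3 and CSF-1 at 10 nM. Ethanol at 0.1% was the solvent control. Chromatin was collected at 0, 3, 12, 24 and 48 hours post-induction (hpi) and precipitated with antibodies to H3K4Me1, H3K27Ac or H3K27Me3, giving 15 libraries with 1 library per mark and time. All libraries came from 1 engineered cell line, no RNA is analysed here, and the ligands CSF-1 and IL-3 were themselves added to the medium.

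Colony-stimulating factors are secreted proteins that keep myeloid cells alive and drive their division and maturation. Csf1r is a receptor tyrosine kinase bound by CSF-1 and IL-34 and is a defining receptor of the macrophage lineage. The GM-CSF receptor pairs a ligand-binding α chain, Csf2ra, with the common β chain Csf2rb, which also serves the IL-3 and IL-5 receptors. Mice have a second β chain, Csf2rb2, that works with the IL-3 receptor. Csf3r binds G-CSF and is typical of neutrophils and their precursors. H3K4Me1 marks enhancers, including those that are not yet active, H3K27Ac marks active enhancers and promoters, and H3K27Me3 is the mark of Polycomb repression. A well-known enhancer of Csf1r, the fms intronic regulatory element, lies in an intron a short distance after the start.

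On the mm9 assembly, Csf2ra (ENSMUSG00000059326.6) lies at chr19:61300305-61304321 on the minus strand. The β chain genes are neighbours on chromosome 15, with Csf2rb (ENSMUSG00000071713.3) at chr15:78156420-78184277 on the plus strand and Csf2rb2 (ENSMUSG00000071714.4) at chr15:78112947-78136052 on the minus strand. Their starts are 20.4 kb apart and they are transcribed away from each other. Csf3r (ENSMUSG00000028859.7) lies at chr4:125701794-125722219 on the plus strand.

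The promoters of 3 of the 5 genes are shown because it is at the starts that the receptors were compared. The sequences are from RefSeq (GRCm38.p6), run from 250 bases before to 50 bases after the annotated start, and are written 5′ to 3′ on the gene's strand. Capitals mark matches to the motifs searched on both strands: TTGCNNAA for C/EBP, GAGGAA for PU.1, TGANTCA for AP-1, TGTGGT for RUNX and the palindromic EBF motif.
Csf2ra, chr19:61228369-61228668, minus strand: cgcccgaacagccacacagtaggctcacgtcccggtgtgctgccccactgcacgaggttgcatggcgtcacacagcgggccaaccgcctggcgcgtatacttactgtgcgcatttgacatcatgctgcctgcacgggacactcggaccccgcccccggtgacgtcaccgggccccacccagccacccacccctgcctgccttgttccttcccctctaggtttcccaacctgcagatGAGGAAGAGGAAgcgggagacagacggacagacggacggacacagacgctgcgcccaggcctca
Csf2rb2, chr15:78305672-78305971, minus strand: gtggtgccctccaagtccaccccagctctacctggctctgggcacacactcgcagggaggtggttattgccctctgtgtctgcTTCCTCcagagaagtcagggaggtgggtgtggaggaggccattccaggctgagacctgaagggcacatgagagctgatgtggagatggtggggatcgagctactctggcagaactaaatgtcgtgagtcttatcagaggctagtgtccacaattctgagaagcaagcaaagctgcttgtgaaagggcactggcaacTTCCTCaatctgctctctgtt
Csf3r, chr4:126024409-126024708, plus strand: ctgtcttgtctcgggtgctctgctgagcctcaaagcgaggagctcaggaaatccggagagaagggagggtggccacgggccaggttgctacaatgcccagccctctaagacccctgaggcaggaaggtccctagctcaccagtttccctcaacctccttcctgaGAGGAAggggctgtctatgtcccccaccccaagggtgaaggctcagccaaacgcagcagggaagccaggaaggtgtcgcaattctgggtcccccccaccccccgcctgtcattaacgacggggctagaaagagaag
GAGGAA or its complement occurred 2 times in the Csf2ra promoter, as a direct repeat beginning at base 237, 2 times in that of Csf2rb2 and 1 time in that of Csf3r. It occurred in 28.3% of all 32851 RefSeq promoters. The other motifs had no match in these 3 windows. They were present in 10.8% (C/EBP), 7.81% (AP-1), 16.8% (RUNX) and 0.904% (EBF) of all promoters. The Csf2ra window held 23 CpG dinucleotides, against 3 in that of Csf2rb2 and 9 in that of Csf3r. Each sequence had 1 exact match on mm9. The RefSeq start lay at the start used for Csf2ra, 109 bases after the one used for Csf3r and -99 bases from the one used for Csf2rb2. Promoters of Csf1r and Csf2rb are not shown.

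Stretches of 300 bases (mm9, plus strand) from the middle of distal 1 kb bins are shown for Csf2ra and Csf2rb2, because these bins carried the most H3K27Ac at 48 hpi outside the start or the largest gain.
Csf2ra, -3.2 kb, chr19:61307351-61307650: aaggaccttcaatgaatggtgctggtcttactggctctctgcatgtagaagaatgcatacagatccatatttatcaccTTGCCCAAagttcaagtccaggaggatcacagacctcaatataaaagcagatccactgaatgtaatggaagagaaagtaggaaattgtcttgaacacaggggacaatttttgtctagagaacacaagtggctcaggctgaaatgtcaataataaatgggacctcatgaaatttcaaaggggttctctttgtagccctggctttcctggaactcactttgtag
Csf2rb2, 5.6 kb, chr15:78130351-78130650: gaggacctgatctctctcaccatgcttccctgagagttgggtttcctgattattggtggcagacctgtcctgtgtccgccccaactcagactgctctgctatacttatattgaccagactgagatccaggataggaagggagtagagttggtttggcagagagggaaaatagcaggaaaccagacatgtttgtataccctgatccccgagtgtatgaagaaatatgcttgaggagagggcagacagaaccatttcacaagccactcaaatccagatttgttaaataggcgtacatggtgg
Csf2rb2, 26.6 kb, chr15:78109351-78109650: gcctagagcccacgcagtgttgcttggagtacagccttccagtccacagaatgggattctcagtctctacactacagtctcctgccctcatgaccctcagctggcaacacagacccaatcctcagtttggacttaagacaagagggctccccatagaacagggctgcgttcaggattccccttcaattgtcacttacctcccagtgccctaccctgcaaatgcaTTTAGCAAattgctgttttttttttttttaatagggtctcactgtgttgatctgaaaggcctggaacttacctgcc
The Csf2ra stretch and the one at 26.6 kb of Csf2rb2 each held 1 match to the C/EBP motif, which was present in 13.8% of 300-base windows taken across the genome. The stretch at 5.6 kb held none of the 5 motifs. A match is a string of letters, and binding was not measured in these libraries.

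Values are sequence tags, counted once per position and thinned at random to the same number per mark (10913733 for H3K4Me1, 15216488 for H3K27Ac and 15338280 for H3K27Me3). As deposited, the libraries held 11041458 to 31557475 tags. A 3 kb window held on average 13.4 (H3K4Me1), 18.6 (H3K27Ac) or 18.8 (H3K27Me3) tags over the genome. With 1 library per mark and time there is no replicate spread, so no test between times was made. The 95% intervals given are exact Poisson or binomial intervals, cover counting error only, and were computed from tags that carry no molecular identifiers. A gene start was called higher or lower when log2 of (tags + 5) differed by at least 2-fold between 48 and 0 hpi. A change in the share of cells that carry a mark cannot be told apart from a change in the mark per cell. The starts of B cell markers such as Pax5 and Cd79a were acetylated at 0 hpi, and 9 of 10 were called lower at 48 hpi (6 with scaling by constantly enriched bins, as described next), while 9 of 10 macrophage markers were called higher. Summed over its 10 genes, the B cell list went from 10434 to 3916 tags of H3K27Ac and the macrophage list from 1172 to 5044. Of 8 granulocyte markers 3 were called higher, and their sum went from 154 to 1263 tags, of which Camp held 1004 at 48 hpi, with Mpo at 6. None of 8 T cell and erythroid markers (1 under that scaling) and none of 6 genes used by every cell passed 2-fold, with sums of 211 and 227 tags and of 3780 and 2755 tags at 0 and 48 hpi. The part of other myeloid cells in the receptor values was not tested. Among the H3K27Ac libraries that of 24 hpi stood apart, in that bins without enrichment held fewer of its tags. Scaling by those bins would raise it by 0.56 on the log2 scale, and the H3K4Me1 libraries of 12, 24 and 48 hpi by 0.63, 0.64 and 0.55. Scaling by bins enriched at all 5 times would raise the H3K27Ac library of 48 hpi by 0.41. Values are by total tags unless a scaling is named, and calls that a scaling changes are named beside the starts, the intronic element and the lists. Enriched bins and their order were not rescaled.

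By the 2-fold call, H3K27Ac at the starts was higher at 48 than at 0 hpi for 3 of the 5 receptors, Csf1r, Csf2rb2 and Csf3r. No receptor was called lower. Among all protein-coding gene starts, 5.35% were called higher and 9.32% lower. Scaling by bins enriched at all 5 times turned this split to 9.45% and 5.00%, with the same number of receptors called. With a 6 kb window 2 receptors were called, since Csf3r was at 0.68. The median change was 1.18 for the 5 receptors and -0.14 for all starts. That median is the value of Csf3r itself, from 6 to 20 tags beside a genome mean of 18.6. At 0 hpi the order of H3K27Ac was Csf2rb (440 tags), Csf2ra (268), Csf2rb2 (143), Csf1r (50) and Csf3r (6), and no neighbouring pair had overlapping intervals. At 48 hpi it was Csf2rb (615), Csf2rb2 (450), Csf1r (246), Csf2ra (238) and Csf3r (20). Csf1r and Csf2ra then differed by less than their counting intervals, 216 to 279 and 209 to 270.

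**Figure D1:**
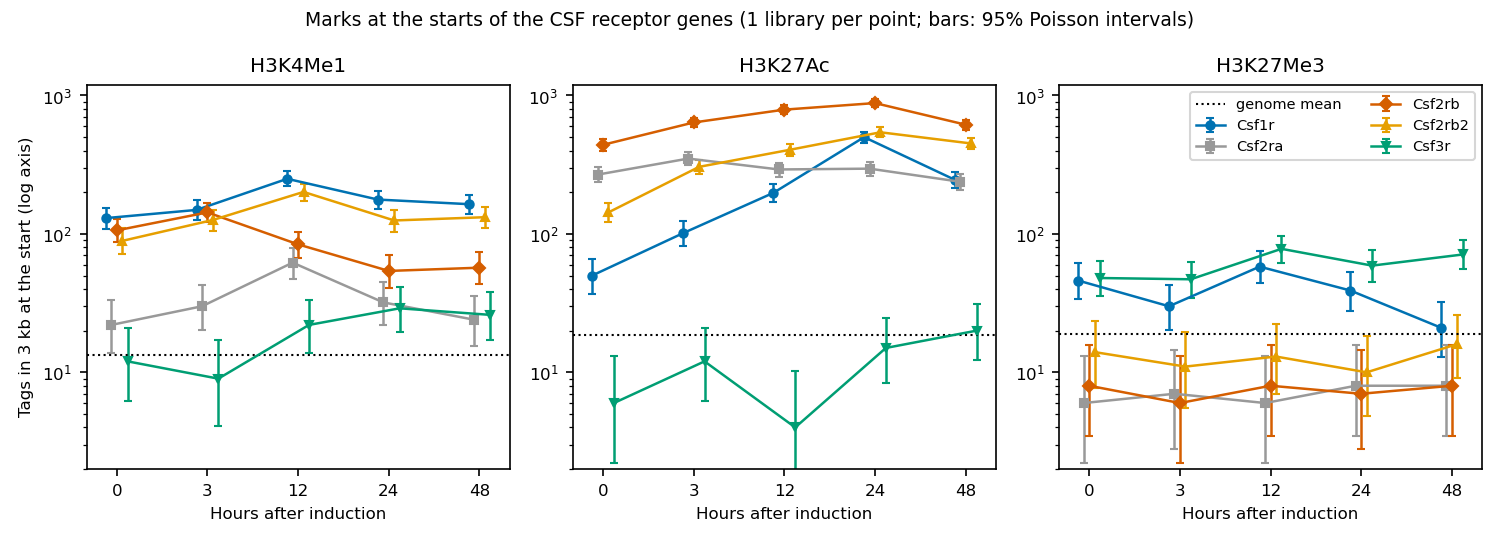
Tags in the 3 kb centred on each receptor gene's start (vertical log axis) at 0, 3, 12, 24 and 48 hours, 1 panel per mark, with 95% Poisson intervals as bars and the genome mean as a dotted line. In the H3K27Ac panel Csf1r climbs from 50 to 500 tags at 24 hours and stands at 246 at 48 hours, whereas Csf3r stays between 4 and 20.

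H3K4Me1 at the starts did not pass 2-fold in either direction for any of the 5 receptors. Of all starts, 3.33% were called higher and 9.49% lower for this mark. After scaling by bins without enrichment the split of all starts was 6.98% and 4.30%, the changes of Csf2rb2 and Csf3r were 1.08 and 1.34, and these 2 then passed 2-fold. By total tags the changes were 0.54 and 0.87, that of Csf3r from 12 to 26 tags. The bins beside the Csf3r start, at -2.3 and 2.7 kb, did not gain the mark, with 6 to 0 and 4 to 3 tags. H3K27Me3 also passed 2-fold at none of the 5 starts, against 1.58% of all starts called higher and 1.83% called lower. That split was 2.20% and 1.18% when scaled by bins without enrichment, and 0.658% and 2.26% with scaling by bins enriched at all 5 times. The change in H3K27Me3 nearest to 2-fold was that of Csf1r, -0.97, with an interval of the tag ratio, given here and below as log2 without the added tags, from -1.95 to -0.36. It was -1.10 after scaling by bins enriched at all 5 times.

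**Figure D2:**
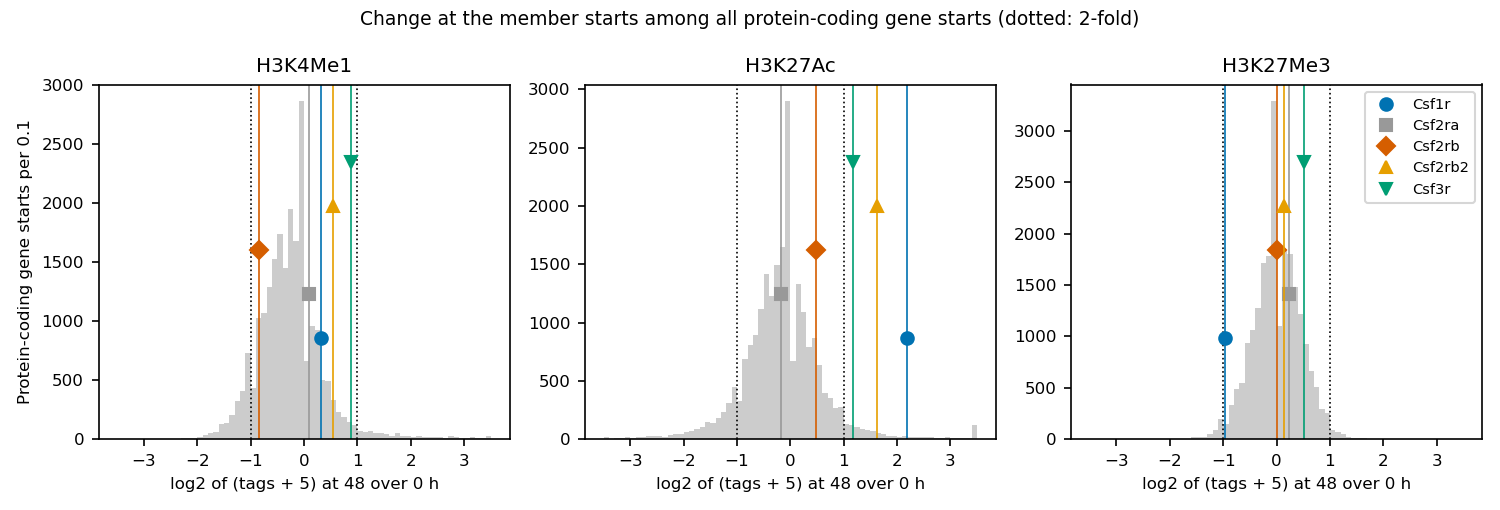
Histograms of the change from 0 to 48 hours, as log2 of (tags + 5), over 22350 protein-coding gene starts for each mark, with the 5 receptor genes as coloured lines and symbols and dotted lines at 2-fold. Changes beyond the plotted range are counted in the outermost bars, and the H3K27Ac panel has Csf1r at 2.19, Csf2rb2 at 1.62 and Csf3r at 1.18, to the right of the 2-fold line.

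Csf1r (ENSMUSG00000024621.8), the CSF-1 receptor, occupies chr18:61265226-61291803 on the plus strand. It had 50, 101, 198, 500 and 246 tags of H3K27Ac at its start at 0, 3, 12, 24 and 48 hpi. Before induction the start thus held 2.68 times the genome mean, which is the 55.2 percentile of all gene starts. It gained tags at each step to 24 hpi and had fewer at 48 hpi. The change from 0 to 48 hpi was 2.19 (interval of the tag ratio 1.86 to 2.77), above 98.7% of all gene starts. The difference between 24 and 48 hpi was -1.01. It was -0.63 after scaling by bins enriched at all 5 times and -1.63 after scaling by bins without enrichment, so the later fall kept its direction and not its size. Between the same times the 6 genes used by every cell also went down, from 4350 to 2755 tags in sum. The T cell and erythroid markers went from 166 to 227. H3K4Me1 at the Csf1r start stood at 130, 149, 250, 177 and 164 tags. That placed Csf1r above 98% of gene starts in pre-B cells, before the rise in acetylation, and highest at 12 hpi. H3K27Me3 stood at 46, 30, 58, 39 and 21 tags, or 2.45 times the genome mean at 0 hpi and 1.12 times at 48 hpi. At 0 hpi the 3 kb window of Csf1r therefore held H3K4Me1 and also H3K27Me3, the latter at the 92.1 percentile of all starts. In 1 kb bins, of which that at -1.7 kb lies mostly outside the window, H3K4Me1 differed by side. H3K4Me1 was 61 and 66 tags at 0.3 and 1.3 kb, where H3K27Me3 was 11 and 16. At -1.7 and -0.7 kb H3K4Me1 was 13 and 15 tags and H3K27Me3 18 and 18. The H3K27Me3 counts of the sides are too close to place the marks apart, and the bin at 1.3 kb was itself enriched in H3K27Me3.

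The 3 kb centred 3 kb after the Csf1r start, chr18:61266726-61269725, hold the intronic element and adjoin the start window. H3K27Ac there was 124, 152, 345, 713 and 456 tags. It was higher than at the start at every time, and the change by 48 hpi was 1.84 (tag ratio 1.59 to 2.18), and 1.76 and 2.25 under the 2 scalings. In pre-B cells the bin at 3.3 kb already held 74 tags per kb of H3K27Ac, against 29 in the bin at 0.3 kb. The bin with the most H3K27Ac at 48 hpi outside the start, at 2.3 kb, had 28, 26, 102, 283 and 201 tags. H3K4Me1 over the element was 197, 216, 421, 245 and 245 tags, highest at 12 hpi as at the start. H3K27Me3 over the element was 28, 26, 33, 17 and 11 tags. That is 1.49 times the genome mean at 0 hpi, 1.76 times at 12 hpi and 0.585 times at 48 hpi. The change from 0 to 48 hpi was -1.04 (tag ratio -2.50 to -0.30), just past 2-fold on low counts, and it was not rescaled.

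Further into Csf1r, several stretches had almost no activating mark until 12 hpi. The bin at 15.3 kb, which holds an exon, had 7, 5, 127, 146 and 119 tags of H3K4Me1. Its H3K27Ac was 3, 1, 22, 74 and 41 tags. The bin at 22.3 kb had the largest log2 gain of H3K27Ac in the locus outside the start, with 1, 3, 36, 78 and 74 tags and a change of 3.72. H3K4Me1 in that bin was 3, 5, 85, 91 and 91 tags. The bin at 26.3 kb, which holds a Csf1r exon and part of Hmgxb3, went from 7 to 88 tags of H3K27Ac. Over the 25 gene-body bins outside the start, H3K4Me1 summed to 361, 317, 1038, 1454 and 1346 tags and H3K27Ac to 207, 227, 603, 1225 and 953. Most of the gain in both sums lay between 3 and 24 hpi. H3K27Me3 over the same bins was 319 tags at 0 hpi and 287 at 48 hpi, a ratio whose interval (-0.39 to 0.08) includes no change. It stayed on the stretch around 17.3 kb, with 33, 30, 39, 40 and 26 tags, between the bins that gained the activating marks.

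**Figure D3:**
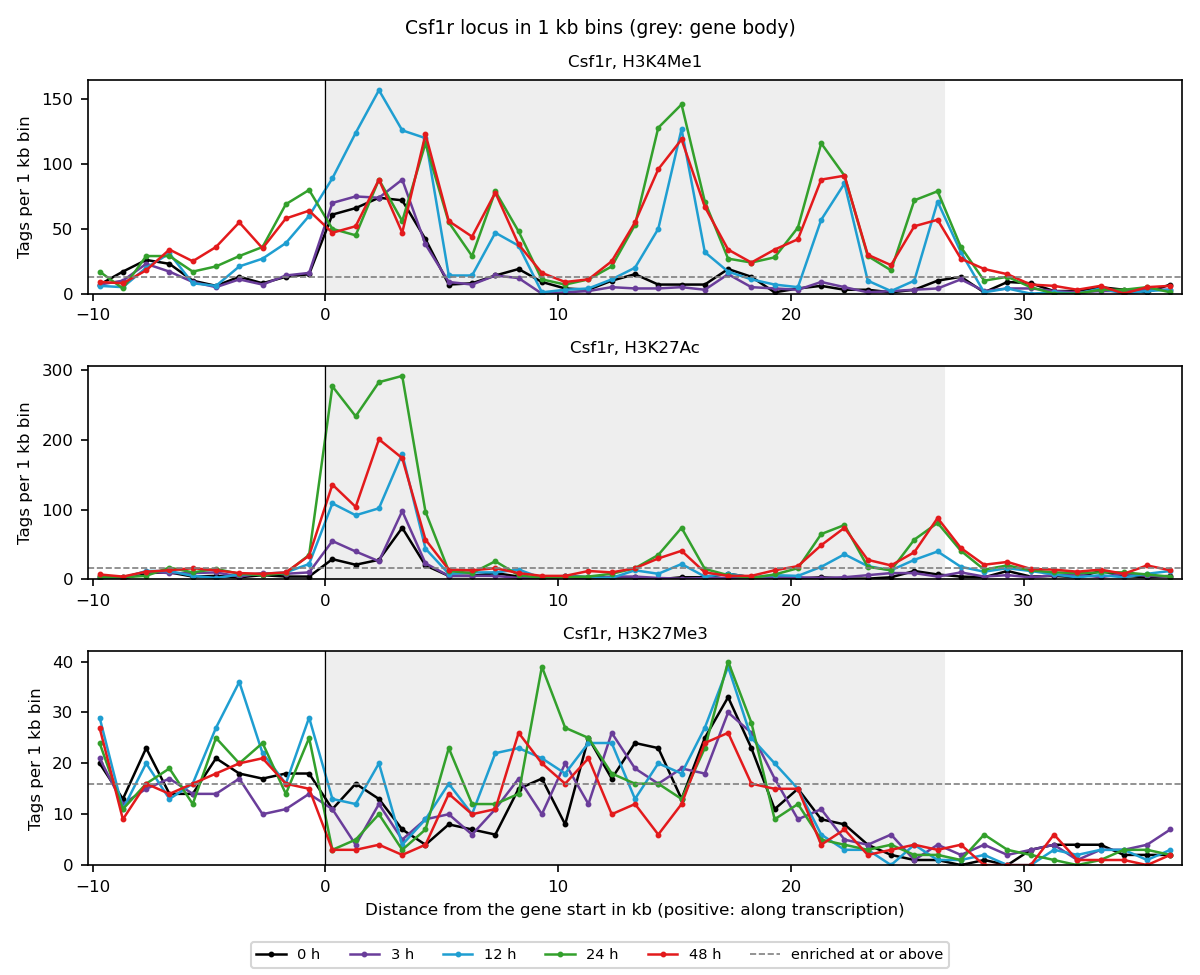
Tags per 1 kb bin (vertical axis) against the distance from the Csf1r start in kb, 1 panel per mark and 1 line per time, with the gene body shaded and the enrichment threshold dashed. H3K4Me1 appears at 15.3 and 22.3 kb only from 12 hours on, while the bins next to the start carry it at 0 hours.

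Csf2ra, the GM-CSF-binding α chain, behaved differently at its start. H3K27Ac was 268, 350, 292, 296 and 238 tags. The change was -0.17, with an interval of the tag ratio (-0.43 to 0.09) that includes no change, and it became 0.24 after scaling by bins enriched at all 5 times, so no direction can be given. H3K4Me1 was 22, 30, 62, 32 and 24 tags and so was at most 4.64 times the genome mean. The 12 hpi value was above the others, with a change from 0 hpi of 1.31 (tag ratio 0.77 to 2.27). H3K27Me3 was 6 to 8 tags, below the genome mean at every time.

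Upstream of Csf2ra the pattern was split. The bins at -2.2, -3.2 and -4.2 kb held 1, 3 and 11 tags of H3K27Ac at 0 hpi and 36, 62 and 52 at 48 hpi. The bin at -3.2 kb, whose sequence is shown above, had 3, 14, 50, 88 and 62 tags and a change of 3.07. Its H3K4Me1 was 8, 14, 68, 68 and 45 tags. A few kb farther out the direction was opposite. H3K27Ac was 96, 32, 62, 64 and 47 tags at -6.2 kb and 75, 32, 27, 24 and 13 at -9.2 kb, with a change of -2.15 at the latter. At both bins the largest step was that between 0 and 3 hpi. In between, H3K27Ac went from 84 to 23 tags at -7.2 kb and from 43 to 14 at -8.2 kb. H3K4Me1 over these 4 bins stayed within 2-fold, from 72 to 74 tags at -6.2 kb, 61 to 40 at -7.2 kb, 57 to 35 at -8.2 kb and 31 to 26 at -9.2 kb, and the counting intervals at -7.2 and -8.2 kb lay below no change. Summed over the 8 upstream bins, H3K27Ac was 333 tags at 0 hpi and 281 at 48 hpi, so the opposite changes were hidden in the sum. An immunoglobulin V gene record, Gm4242, lies in the bin at -4.2 kb.

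Csf2rb, the common β chain of the GM-CSF, IL-3 and IL-5 receptors, had the most acetylated start of the 5 receptors at every time. H3K27Ac was 440, 638, 790, 881 and 615 tags. The change to 48 hpi was 0.48 (tag ratio 0.30 to 0.66) and to 24 hpi 0.99. Scaled by bins enriched at all 5 times, the change was 0.89 to 48 hpi and 1.01 to 24 hpi, with a later step of -0.13. Scaled by bins without enrichment it was 0.41 and 1.55, with a later step of -1.14. The 24 hpi value therefore passed 2-fold under both scalings and the 48 hpi value under neither. H3K4Me1 at the start was 106, 143, 84, 54 and 57 tags, the only member start with a lower value at 48 than at 0 hpi. The change of -0.84 had a tag ratio from -1.39 to -0.42 and was -0.33 after scaling by bins without enrichment. H3K27Me3 was 6 to 8 tags throughout.

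The gains at Csf2rb lay around the start and not at its centre. The bin at 0.1 kb had 326 tags of H3K27Ac at 0 hpi and 304 at 48 hpi. Those at -4.9 and -3.9 kb each had 8 tags at 0 hpi, 41 and 34 at 3 hpi, and 60 and 56 at 48 hpi. The gain upstream was therefore present within 3 hours, and the sum of the 8 upstream bins was 74, 225, 263, 336 and 251 tags. The gene body followed later. Its 26 bins outside the start summed to 227, 278, 520, 896 and 1117 tags of H3K27Ac, a change of 2.27 (tag ratio 2.09 to 2.51). The largest rise on the log2 scale was in the bin at 13.1 kb, with 2, 1, 15, 41 and 60 tags. Outside the start the bin with the most H3K27Ac at 48 hpi, at 5.1 kb, had 63, 66, 50, 98 and 117 tags, while its H3K4Me1 went from 56 to 23. Past the end of the gene, the bin at 30.1 kb had 15, 46, 92, 92 and 61 tags of H3K4Me1. Its H3K27Ac was 2, 20, 22, 23 and 33 tags. Farther out, the bin at 33.1 kb held 26, 24, 51, 38 and 54 tags of H3K27Me3 and almost none of the activating marks.

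Csf2rb2, the second β chain, began with less acetylation than Csf2rb. H3K27Ac at the start was 143, 305, 405, 542 and 450 tags, a change of 1.62 (tag ratio 1.38 to 1.94) that lay above 97.8% of all starts. The step to 3 hpi alone was 1.07, with a tag ratio from 0.80 to 1.39. It was 1.19 after scaling by bins enriched at all 5 times and 0.79 after scaling by bins without enrichment. Whether that step passed 2-fold therefore depends on the scaling. The step from 24 to 48 hpi was -0.27, with 0.12 after scaling by bins enriched at all 5 times and -0.89 after scaling by bins without enrichment, so the values cannot be ordered. H3K4Me1 was 89, 126, 201, 125 and 132 tags, highest at 12 hpi as at Csf1r. H3K27Me3 was 10 to 16 tags, under the genome mean.

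Away from the start H3K27Ac was gained in the gene body, whose 21 bins went from 101 to 553 tags, and downstream. Upstream, 8 bins went from 13 to 74 tags. That is 1.62 tags per bin at 0 hpi and 9.25 at 48 hpi, beside a genome mean of 6.22. The intronic bin at 5.6 kb had 62 tags of H3K4Me1 at 0 hpi and 71 at 48 hpi, and its H3K27Ac was 16, 29, 21, 54 and 137 tags. Acetylation there rose mainly after 12 hpi on a stretch that carried H3K4Me1 before induction. Downstream of the gene, the bin at 26.6 kb had the largest log2 gain of H3K27Ac over all 5 loci, with 3, 11, 26, 72 and 133 tags and a change of 4.11. Its H3K4Me1 was 6, 23, 78, 88 and 90 tags. At that bin H3K4Me1 was near its final level at 12 hpi, when H3K27Ac was at 26 tags. The neighbouring bin at 25.6 kb already held 45 tags of H3K4Me1 at 0 hpi. The 10 downstream bins together held 36, 57, 152, 250 and 395 tags of H3K27Ac, more at each time than at the one before.

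**Figure D4:**
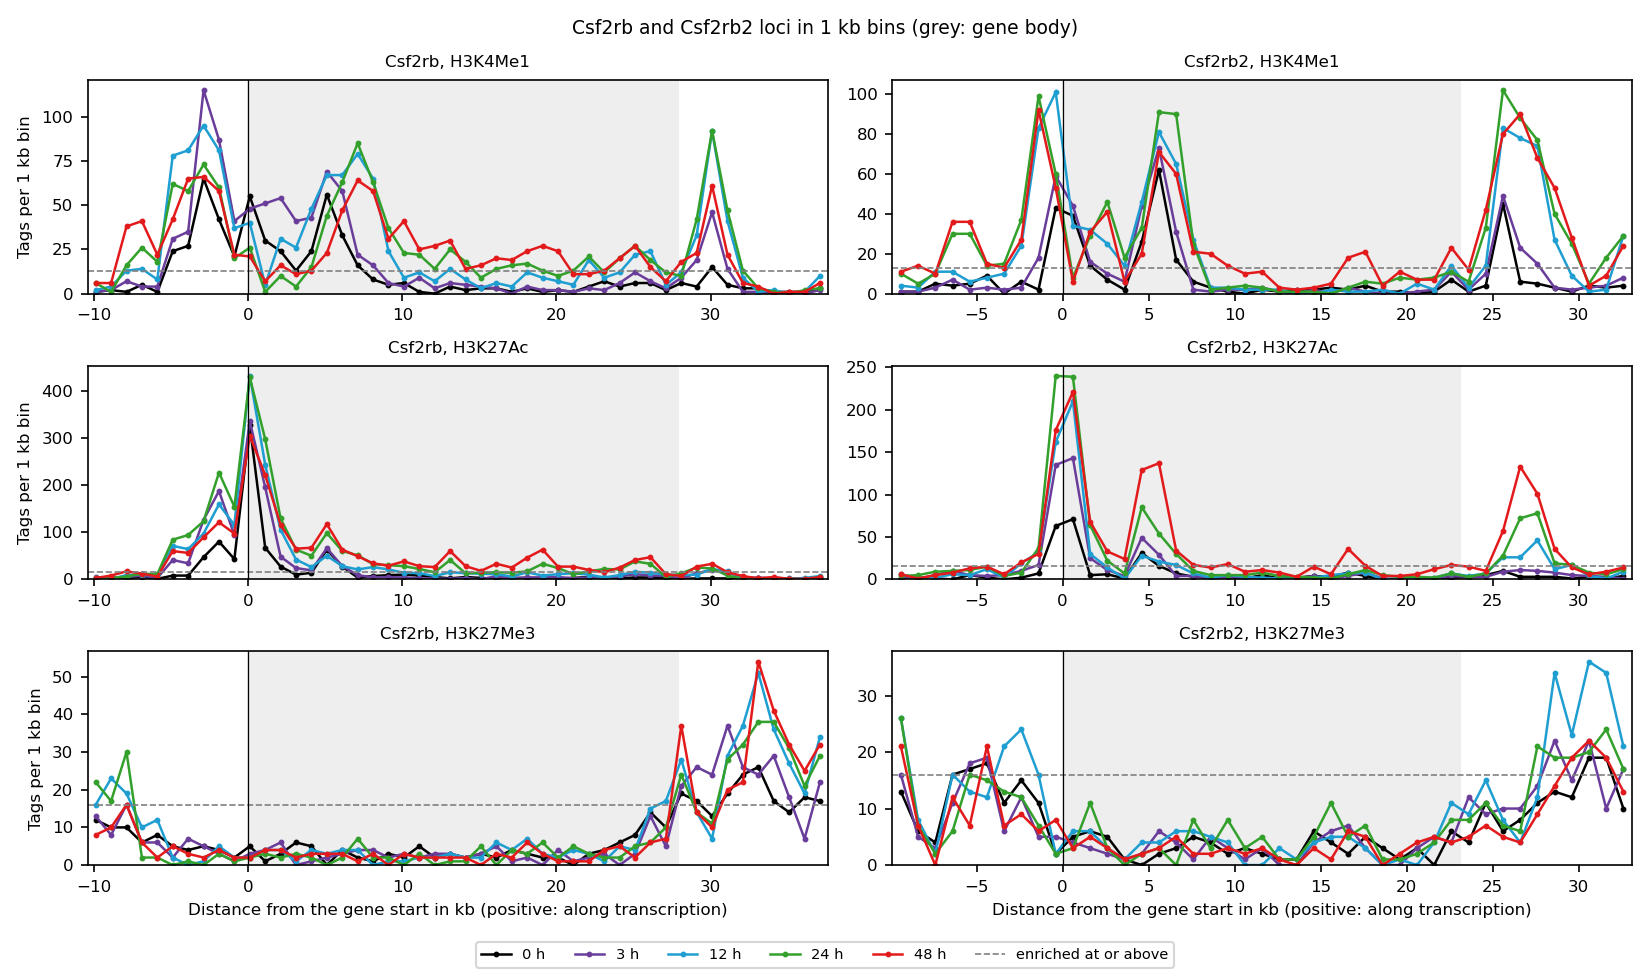
Tags per 1 kb bin over the Csf2rb (left) and Csf2rb2 (right) loci against the distance from each start in kb, 1 row per mark and 1 line per time, with gene bodies shaded and the enrichment threshold dashed. The central Csf2rb bin is as high in H3K27Ac at 0 hours (326 tags) as at 48 hours (304), while the downstream stretch of Csf2rb2 goes from 3 to 133 tags at 26.6 kb.

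The β chain genes are similar in sequence, and only tags that align to a single place were kept by the authors. Of the 36-base words in the start window, 73.5% were unique in the genome at Csf2rb and 87.8% at Csf2rb2. Words shared between the pair made up 4.93% of the Csf2rb window and 9.97% of the Csf2rb2 window. In the gene bodies the shares were 19.3% and 22.8%. Unique words covered 99.1% of the start window at Csf1r, 92.7% at Csf2ra and 98.8% at Csf3r. The counts of the β chain genes therefore miss the repeated stretches at every time, and their levels are not exactly comparable with those of the other genes.

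Csf3r, the G-CSF receptor, stayed poor in the activating marks at its start. H3K27Ac was 6, 12, 4, 15 and 20 tags, all near or under the genome mean of 18.6, and its call of 1.18 rests on these low counts (tag ratio 0.37 to 3.34). At 48 hpi it lay at the 49.2 percentile of all starts. H3K4Me1 was 12, 9, 22, 29 and 26 tags. H3K27Me3 was 48, 47, 78, 59 and 71 tags and was the highest of the 5 receptors at every time, though at 0 hpi within the counting interval of Csf1r, from the 93 to the 98.2 percentile of all starts. The change in H3K27Me3 was 0.52, with a tag ratio from 0.02 to 1.12. Over the 18 gene-body bins outside the start H3K27Me3 summed to 245 tags at 0 hpi and 303 at 48 hpi.

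Upstream of Csf3r 1 bin gained both activating marks by more than 2-fold. The bin at -6.3 kb had 21, 32, 70, 82 and 89 tags of H3K4Me1. Its H3K27Ac was 9, 8, 9, 40 and 36 tags, higher from 24 hpi on. The bin at -5.3 kb held 23, 15, 23, 51 and 42 tags of H3K27Ac. The bin with the most H3K27Ac at 48 hpi in the locus, at 22.7 kb, contains the start of Mrps15, a mitochondrial ribosomal protein gene, and went from 260 to 135 tags. The largest rise on the log2 scale was at 26.7 kb, within Mrps15, with 4, 8, 15, 37 and 22 tags and a change of 1.58. In tags the bin at -6.3 kb rose more.

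**Figure D5:**
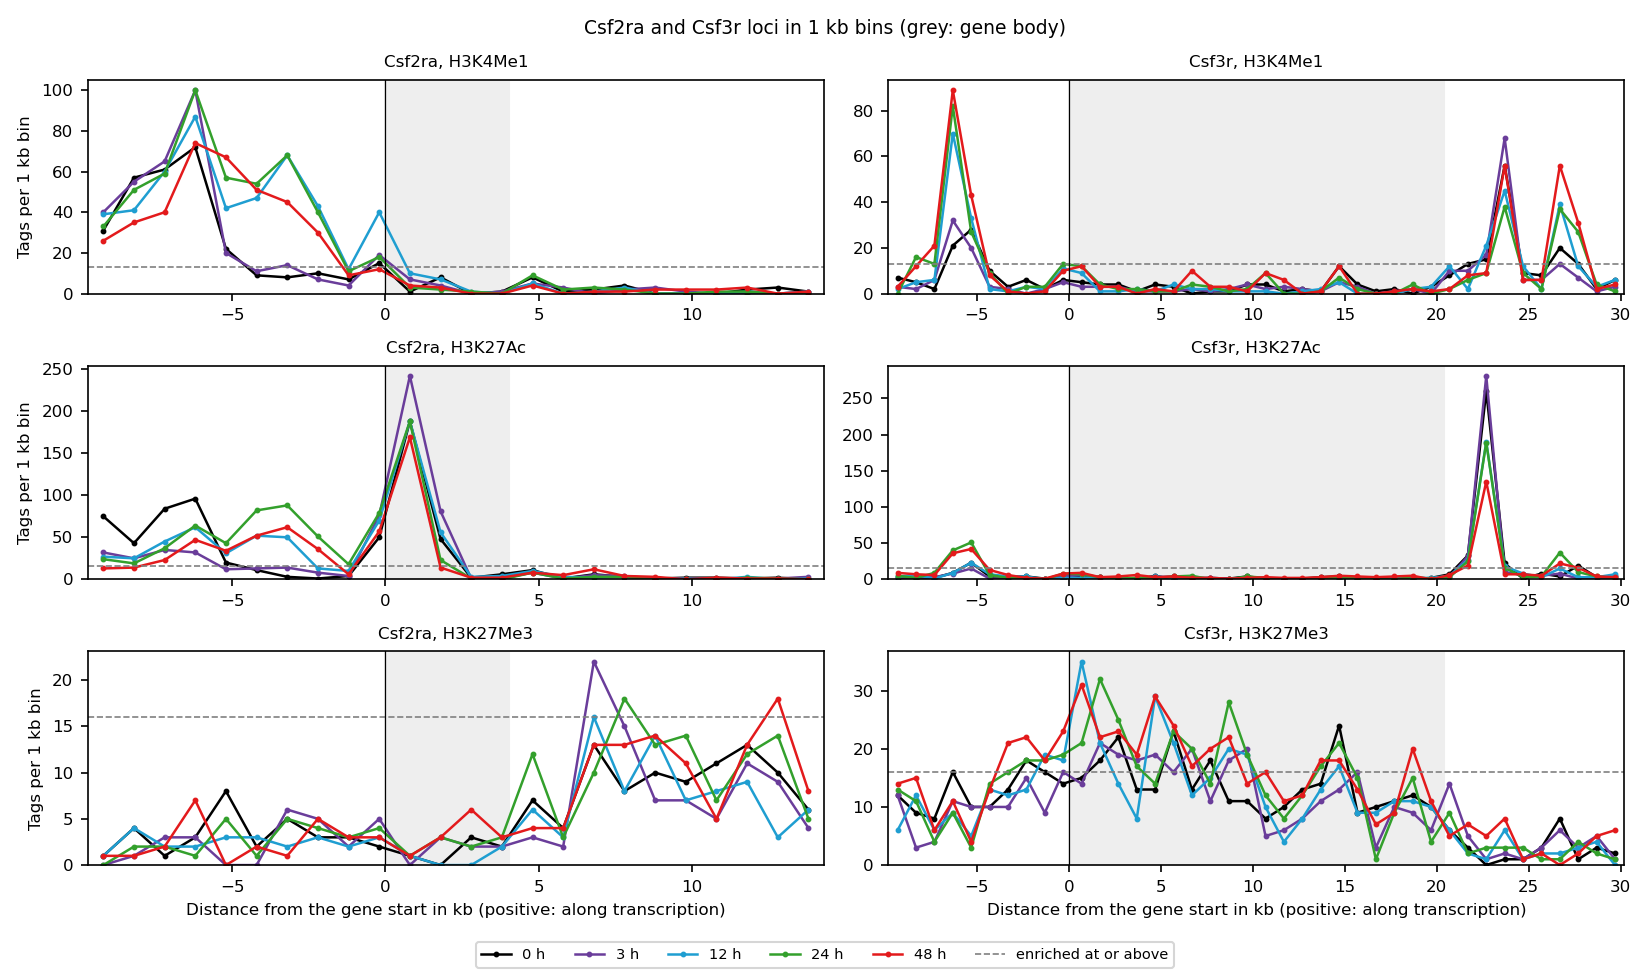
Tags per 1 kb bin over the Csf2ra (left) and Csf3r (right) loci against the distance from each start in kb, 1 row per mark and 1 line per time, with gene bodies shaded and the enrichment threshold dashed. H3K27Ac upstream of Csf2ra falls at -9.2 kb (75 to 13 tags) and appears at -3.2 kb (3 to 62 tags), and the H3K27Me3 of the Csf3r gene body averages 13.6 tags per bin at 0 hours and 16.8 at 48 hours.

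Extent was compared by counting enriched 1 kb bins over each gene body and 10 kb on either side. A bin was enriched when its tags had a Poisson tail below 0.001 over the genome mean, which needed 13 tags for H3K4Me1 and 16 for the other marks. For H3K27Ac, Csf1r went from 5 enriched bins of 47 at 0 hpi through 5, 14 and 19 to 22 at 48 hpi. Csf2rb went from 8 of 48 through 13, 18 and 28 to 34, and Csf2rb2 from 4 of 43 through 6, 12 and 13 to 19. Csf2ra had 8, 7, 10, 12 and 8 of 24 bins. Csf3r had 5, 2, 4, 6 and 6 of 40. The share of all mappable bins of the genome enriched in H3K27Ac was 4.55%, 4.60%, 5.26%, 5.55% and 6.56% at the 5 times. Csf1r, Csf2rb and Csf2rb2 began above the genome share, at 10.6%, 16.7% and 9.30%, and ended with 46.8%, 70.8% and 44.2% of their bins enriched. Against a local background, which leaves out bins inside broad domains, the 48 hpi counts were 9, 9 and 7, and the 5 loci held 32 such bins in place of 89.

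For H3K4Me1, Csf1r had 17, 11, 24, 35 and 36 enriched bins. The β chain loci had 14, 17, 23, 33 and 35 at Csf2rb and 7, 10, 18, 22 and 26 at Csf2rb2. At Csf2ra the counts were 6 to 9 and at Csf3r 5 to 8. The genome shares for this mark were 7.27%, 7.48%, 7.57%, 8.47% and 8.94%. H3K27Me3 bins numbered 16, 13, 22, 17 and 14 at Csf1r, and 8, 10, 9, 14 and 17 at Csf3r. Those at Csf2rb were 8 to 12, at Csf2rb2 5 to 10, and at Csf2ra 0 or 1. The genome shares were 6.86%, 6.68%, 8.04%, 8.29% and 8.79%. Against a local background the 5 loci together held 22 bins of H3K4Me1 at 0 hpi and 29 at 48 hpi, in place of 51 and 111, and 4 and 10 of H3K27Me3, in place of 37 and 46. Over the 5 loci, 63 of 202 bins were enriched in H3K27Ac at 48 and not at 0 hpi, 26 at both times and 4 at 0 hpi alone. These are 31.2%, 12.9% and 1.98% of the bins, against 3.16%, 3.4% and 1.15% of all mappable bins of the genome.

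The order in which the marks reached the threshold was examined in the 94 bins that were enriched in both activating marks at some time. H3K4Me1 was ahead of H3K27Ac in 40 bins, or 42.6%, and H3K27Ac was ahead in 6, or 6.38%. Over all 185288 such bins of the genome the shares were 27.1% and 8.49%, and 51.1% were enriched in both at 0 hpi, against 29.8% at the receptors. Leaving out those bins, H3K4Me1 was ahead in 60.6% of 66 bins at the receptors and in 55.4% of 90549 in the genome, and H3K27Ac was ahead in 9.09% and 17.4%. These differences were not tested. In 48 of the 94 receptor bins both were first seen at the same time, 28 of them at 0 hpi, so no order can be read there. H3K4Me1 was ahead in 18 of 36 bins at Csf2rb, 10 of 20 at Csf2rb2 and 8 of 22 at Csf1r. A further 32 bins, 16 of them at Csf1r, were enriched in H3K4Me1 at some time and never in H3K27Ac, against 4 with the reverse. The thresholds were set for each mark from its own genome mean, so the order is that of crossing a threshold and not of the marks' absolute levels.

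The genes whose starts were most like each receptor over the 15 libraries were found by Euclidean distance on log2 of (tags + 5) relative to the genome mean. For Csf1r they were Cnr2 at 1.95, Gm9875 at 1.96 and Gm11428 at 1.97, against a median distance of 9.91 over all starts. Cnr2, the peripheral cannabinoid receptor gene, went from 72 to 259 tags of H3K27Ac and from 45 to 22 of H3K27Me3. The nearest to Csf2rb were Rab24 at 0.82 and Prelid1 at 0.86, followed by Nek9. Rab24 and Prelid1 had nearly the same H3K27Ac counts, 499 and 499 tags at 0 hpi and 419 and 418 at 48 hpi. Whether their windows overlap was not tested, so they may not be separate examples. Csf2ra was nearest to Pomt2, Commd6 and Rdh14, the last of them at 1.03. Csf2rb2 was nearest to Lrrc20, Echdc3 and Adap1, at 1.27 to 1.37. Csf3r was nearest to Notch4 at 1.09, Taar4 at 1.30 and Adap2 at 1.36, starts that also carried more H3K27Me3 than H3K27Ac. Among the receptors themselves, Csf2rb and Csf2rb2 were the closest pair at 3.28, and Csf3r lay 10.57 to 14.19 from the others.

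The wider pathway was read at gene starts by lists. Of all starts, 5.35% were called higher and 9.32% lower in H3K27Ac, with a median of -0.14. Scaled by bins enriched at all 5 times, these were 9.45%, 5% and 0.11. Of 6 ligand genes, 1 was called higher in H3K27Ac and none lower, with a list median of 0.11. Csf3, which encodes G-CSF, the ligand of Csf3r, had 10, 15, 48, 135 and 105 tags, a change of 2.87. Its H3K4Me1 went from 23 to 182 tags. Csf1 had 217 tags at 0 hpi and 254 at 48 hpi, and Csf2 47 and 25.

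Of 8 related receptors 2 were called higher and 2 lower in H3K27Ac, with a median of -0.10 beside -0.14 over all starts. Scaling by bins without enrichment left 1 higher, with Flt3 at 0.98, and scaling by bins enriched at all 5 times left 1 lower, with Il5ra at -0.81 and a median of 0.24. Flt3, a receptor tyrosine kinase of the Csf1r family, had 13, 36, 21, 26 and 32 tags, a change of 1.04. Pdgfrb, another relative of Csf1r, had 18, 11, 5, 16 and 45 tags, a change of 1.12. Both began below the genome mean of 18.6 tags, so these calls rest on low counts. The tag ratios ran from 0.33 to 2.35 for Flt3 and from 0.50 to 2.20 for Pdgfrb. Il5ra, the IL-5-binding chain that pairs with Csf2rb, went from 34 to 13 tags. Pdgfra had 7, 9, 3, 0 and 0 tags, all below the genome mean. Il3ra, the IL-3-binding chain, had 220 tags at 0 hpi and 192 at 48 hpi and passed 2-fold in neither direction.

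Among 25 signalling genes, 3 were called higher and 5 lower, with a list median of -0.39 beside -0.14 over all starts. Scaled by bins enriched at all 5 times, the calls were 3 higher and 1 lower and the median was 0.01, beside 0.11 over all starts, so the lower calls other than that of Pik3cd, then at -1.26, rest on the scaling by total tags. Those called higher were Cish at 2.39, Socs3 at 1.70 and Gab2 at 1.19. Cish and Socs3 encode feedback inhibitors of cytokine receptors. Cish had 33, 170, 178, 264 and 194 tags and Socs3 89, 411, 235, 416 and 300, so most of each gain was present at 3 hpi. Gab2, an adaptor, went from 452 to 1041. The largest decreases by total tags were those of Pik3cd, a PI3-kinase subunit, from 750 to 233 tags, and Inpp5d, a lipid phosphatase, from 1235 to 488. Plcg2, a phospholipase, went from 569 to 265 tags. Stat5b, a transcription factor downstream of these receptors, was also called lower, at -1.01.

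Of 10 regulators listed, 8 were measured (Cebpd and Gfi1 were not analysed here). None was called higher and 3 lower in H3K27Ac, with a median of -0.08 beside -0.14 over all starts. Scaled by bins enriched at all 5 times, 1 was called higher and 1 lower, Runx1 at -1.53, and the median was 0.16 beside 0.11 over all starts. Runx1, a known regulator of Csf1r, had 924, 911, 822, 711 and 238 tags, a change of -1.93. Irf8 went from 526 to 222 tags and Cebpa from 98 to 39. The cells carry a C/EBPα transgene, and whether its tags add to the Cebpa count was not tested. Spi1, which encodes PU.1, had 1320 tags at 0 hpi and 1178 at 48 hpi, and Cebpb 632 and 640, both within 2-fold.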

How the data were processed

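H3K4Me1, H3K27Ac and H3K27Me3 were measured by chromatin immunoprecipitation and sequencing at 5 times, 1 library each. The deposited values are aligned positions of 36-base tags. Per the study's methods the authors aligned reads with Eland or Bowtie to mm9 without mismatches and removed identical and non-unique tags. Bowtie and mm9 are also named in the submitters' processing notes. Some positions were still repeated, so 1 tag per position was kept, placed at its middle, and tags were drawn at random so that all libraries of a mark equalled its smallest. Tags were counted in 3 kb centred on the 5′ end of each protein-coding gene record (GENCODE vM1) and in 1 kb bins over the gene body and 10 kb on either side. Changes are log2 of (tags + 5), and calls need 2-fold. Bins with the largest rise or gain were ranked on this scale. Shared and unique 36-base words were counted on mm9. Python 3.11.15, numpy 2.4.6, pandas 2.3.3 and SciPy 1.17.1 were used, and scripts were tested on simulated data. The members and lists were chosen with earlier results of these data known. Named from the lists were genes past 2-fold in H3K27Ac, at most 4 in each direction per list, and for each receptor the 3 most similar starts and the bins with the most H3K27Ac at 48 hpi and the largest rise. Some listed genes are not reported here by name. Other bins and genes named were chosen after their values were seen. Scaled values of the intronic element and of list genes, and the genome's gained bins and order of marks, were added after seeing the data. Alternatives changed the scaling, thinning, repeated tags, window, gene start, added tags, bin grid, threshold and background.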

Additional observations from a re-analysis of the deposited data

How the results depend on the processing

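Of 421 values recomputed for 75 results, 360 stayed within the limits set for a change and 61 moved. Scaled by bins without enrichment, 2 receptors were at least 2-fold higher in H3K4Me1 in place of 0, and 1 was with a 6 kb window or with 1 tag added. For H3K27Me3, 1 receptor was at least 2-fold lower with 1 tag added, and likewise after scaling by the bins that were enriched throughout. Scaling by bins enriched at all 5 times gave H3K27Ac changes of 0.24 at Csf2ra, the opposite direction, 0.89 at Csf2rb and 2.03 at Csf2rb2, and a 6 kb window gave 0.71 at Csf2rb and 0.68 at Csf3r, which left 2 receptors called in place of 3. That scaling moved the median of all starts for H3K27Ac from -0.14 to 0.11, and scaling by bins without enrichment moved that for H3K4Me1 from -0.26 to 0.05. With a Poisson tail of 1e-05 the H3K27Me3 bins over the 5 loci numbered 14 at 0 hpi and 30 at 48 hpi, in place of 37 and 46. Against a local background, which by construction removes bins inside broad domains, there were 22 and 29 bins of H3K4Me1, 16 and 32 of H3K27Ac, and 4 and 10 of H3K27Me3 at 0 and 48 hpi. The cause of the other shifts was not tested. With 1 library per mark and time, differences of a few tags, as at Csf3r, are limited by counting error, and the spread between cultures is unknown. No paired analysis was possible because every group holds a single library, so the groups share only 1 replicate number and no result comes from a test.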
